A study of Mus musculus with 7 samples.

Results

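Cystine, amino acid and peptide transporters of the mouse ileum were described in 10 genes: Slc3a1, Slc7a9, Slc6a19, Slc15a1, Slc1a1, Slc3a2, Slc7a7, Slc7a8, Slc7a5 and Slc7a11. They were chosen by name for their known roles in moving cystine, other amino acids and peptides across the epithelium. Earlier results of these data were known when they were chosen. Each was found once among the 38293 genes of the count table. RNA was sequenced from scrapings of the ileum, which take off the epithelium and the lamina propria and leave the muscle layer behind. The mice were male C57BL/6NRJ, 8 weeks old, housed individually and kept on a purified AIN93G high fat, low calcium diet, on which all of them spent 1 week before the intervention. For the following 2 weeks, the normal cys group (n = 4) stayed on this diet with 0.38% total cystine, and in the low cys group (n = 3) the added cystine was replaced by alanine, which left 0.08% from casein. The labels name no genetic change in either group.

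Dietary cystine is a disulfide of a pair of cysteines. It is taken up at the brush border by a heteromer of the heavy chain Slc3a1 (rBAT) and the light chain Slc7a9, linked by a disulfide bond, which imports cystine and cationic amino acids in exchange for neutral ones, and loss of either gene in humans causes cystinuria. Most dietary protein enters as free neutral amino acids through Slc6a19, as di- and tripeptides through Slc15a1 (PEPT1) and as acidic amino acids through Slc1a1. On the basolateral side, the heavy chain Slc3a2 (CD98) carries the light chains Slc7a7 and Slc7a8, which release amino acids to the blood, and in dividing or stressed cells it carries Slc7a5 and the cystine-glutamate exchanger Slc7a11 (xCT).

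The libraries held between 19712355 and 22412703 counts in the normal cys group and between 14888760 and 21942518 in the low cys group. Values are given as CPM, the unit in which counts are divided by the TMM-scaled total of their library. The TMM factors ran from 0.900 to 1.03 in the normal cys and from 1.02 to 1.12 in the low cys libraries. Library values are listed in the order X17SI4, X32SI4, SI9 and X1SI4 for normal cys and X23SI4, X26SI4 and X10SI4 for low cys. The tissue carried its defining markers. Over all libraries, the 8 enterocyte markers summed to between 21447 and 60467 CPM and the 5 markers of the distal ileum to between 4382 and 9570 CPM. The 5 smooth muscle markers summed to 35.7 CPM at most. Markers of the proximal small intestine were also present, with sums of 5 genes between 261 and 1380 CPM. Among them Gata4 ran from 5.78 CPM in X1SI4 to 38.6 CPM in X17SI4, both of the normal cys group. The part of gut region in the carrier values was not tested.

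Of the 10 genes, 7 had a lower estimate after cystine restriction and 3 a higher one, and none passed the test after adjustment for all 14869 genes tested. Slc15a1 and Slc6a19, the carriers of peptides and neutral amino acids, had the largest differences among the abundant members, with low cys means at 60.4% and 66.8% of the normal cys means. The cystine carrier genes Slc3a1 and Slc7a9 stood at 82.8% and 81.1%. Slc7a11 was barely detected on either diet.

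All 10 genes passed the filter on low counts. With edgeR's quasi-likelihood test and Benjamini-Hochberg adjustment, 0 of the 10 had an adjusted p under 0.05, where 0% of all genes tested had one, and the smallest adjusted p among the 10 was 0.794. At an unadjusted p under 0.05 there were 2 of the 10, Slc6a19 and Slc15a1, both lower, beside 5.49% of all genes tested (2.83% lower and 2.66% higher). DESeq2 called 0 of the 10 after adjustment, beside 0.108% of all genes tested, and 4 before it, beside 6.32%. Limma-voom called 0 after adjustment and 3 before it, beside 6.25%. In 2 of the 10, Slc7a9 and Slc7a7, every low cys library lay below every normal cys library, beside 3.51% of all genes tested, and in 0 of the 10 were they all above, beside 3.32% (6.83% in either direction). With the counts scaled to the total alone, without TMM factors, this count was 0, the median of all genes tested moved up by 0.14 on the log2 scale, and the directions of the 10 genes stayed at 7 lower and 3 higher. The share of all genes without overlap was not computed with this scaling. Among the 8 members with a normal cys mean of at least 10 CPM, 7 had a lower estimate and the median log2 fold change was -0.28, compared with 58.4% of genes lower and a median of -0.05 over all tested genes with a mean of at least 10 CPM.

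**Figure D1:**
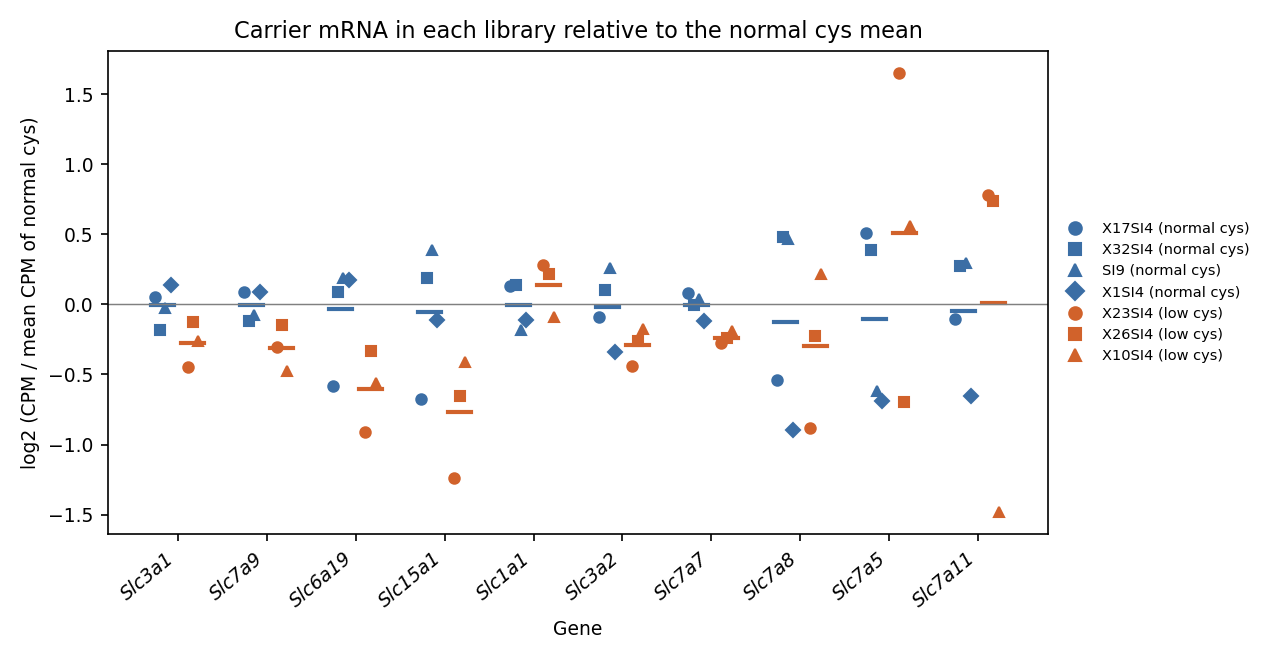
The log2 ratio of each library's CPM to the normal cys mean is plotted for the 10 genes, with 1 point for each library and a bar at the mean of each diet. Points of the diets separate fully for Slc7a9 and Slc7a7, while library X17SI4 of the normal cys group lies among the low cys libraries for Slc6a19 and Slc15a1, and Slc7a5 and Slc7a11 scatter most.

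The apical cystine carrier was among the most evenly expressed of the members between mice. Slc3a1, the heavy chain (ENSMUSG00000024131, chromosome 17 of GRCm38 from 85028347 to 85064243), had 529, 449.6, 500.0 and 563 CPM in the normal cys libraries and 375, 467 and 426 CPM in the low cys libraries. X23SI4 was the lowest, and X26SI4 lay above the normal cys library X32SI4, so the diets overlapped. The means were 510.2 ± 47.8 (SD, n = 4) and 423 ± 46.1 (SD, n = 3) CPM, a log2 fold change of -0.27 (standard error 0.14, 95% interval -0.60 to 0.05, adjusted p = 0.794 in edgeR). Exons of Slc3a1 overlap those of Prepl on the opposite strand, and 24.8% of the 50-base stretches of its transcript also occur in antisense in transcripts of other genes. Since the strand setting of the counting was not given, the counts of Slc3a1 are uncertain. This share of stretches does not give the share of reads affected, which was not measured.

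Slc7a9, the light chain that carries cystine (ENSMUSG00000030492, chromosome 7 from 35449037 to 35466036), had 571, 494, 509 and 571 CPM in the normal cys libraries and 434, 485 and 386 CPM in the low cys libraries. Every low cys library was below every normal cys library, with the nearest pair being X26SI4 and X32SI4. The means were 536 ± 40.7 (SD, n = 4) and 435 ± 49.7 (SD, n = 3) CPM (exact permutation test, two-sided, p = 0.0286, the smallest value that 4 against 3 libraries allow). The log2 fold change was -0.30 (standard error 0.14, 95% interval -0.62 to 0.02, unadjusted p = 0.0599, adjusted p = 0.794 in edgeR). None of its 50-base stretches was shared with another gene.

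The heavy and the light chain were expressed at nearly the same level per length of exon. Within a library, the counts per kilobase of Slc7a9 were 0.940, 0.955, 0.886 and 0.884 times those of Slc3a1 on the normal and 1.01, 0.905 and 0.788 times on the low cystine diet. This ratio does not depend on the scaling of the libraries, but it shares the uncertainty of the Slc3a1 counts from the overlap with Prepl. X23SI4 had the highest and X10SI4 the lowest ratio, so the low cys libraries enclosed the normal cys ones. On the log2 scale the ratio differed by -0.032 between the diets, with p = 0.771 in a two-sided exact permutation test and 0.8 after adjustment over 5 pairs of chains, less than the SD of 0.058 among the normal cys and of 0.18 among the low cys libraries. Over the 7 libraries, the log2 CPM of Slc3a1 and Slc7a9 had a Pearson correlation of 0.85 and a Spearman correlation of 0.93, and after each diet's mean was taken off the Pearson correlation was 0.63. They are given as a description because the points share library and depth.

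To show which elements lie before the genes, the bases ahead of the RefSeq start of Slc3a1, of the upstream start of Slc7a9 and of Slc7a11 are printed up to the beginning of the annotated exon (RefSeq, GRCm38.p6), at chr17:85028097-85028346 on the plus strand, chr7:35448842-35449036 on the plus strand and chr3:50443615-50443863 on the minus strand. Capitals mark an HNF4 site (CAAAGTCCA) in Slc3a1 and the amino acid response element (TGATGNAA, bound by ATF4 when amino acids are scarce) in Slc7a11.
Slc3a1: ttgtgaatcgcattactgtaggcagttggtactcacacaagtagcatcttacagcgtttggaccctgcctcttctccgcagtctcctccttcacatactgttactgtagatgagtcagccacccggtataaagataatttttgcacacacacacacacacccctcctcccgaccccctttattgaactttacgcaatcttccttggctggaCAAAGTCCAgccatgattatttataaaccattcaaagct
Slc7a9: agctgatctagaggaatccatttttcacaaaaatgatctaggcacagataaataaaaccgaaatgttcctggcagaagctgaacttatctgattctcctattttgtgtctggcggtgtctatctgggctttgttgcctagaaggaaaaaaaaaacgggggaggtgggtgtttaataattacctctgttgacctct
Slc7a11: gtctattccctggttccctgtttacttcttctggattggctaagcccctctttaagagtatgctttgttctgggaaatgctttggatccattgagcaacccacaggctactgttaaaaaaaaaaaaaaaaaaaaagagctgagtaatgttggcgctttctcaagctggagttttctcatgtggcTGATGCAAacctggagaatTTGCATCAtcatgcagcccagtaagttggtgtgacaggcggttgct

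The 5 motifs searched on both strands, in the 250 bases before the start, were the amino acid response element, the antioxidant response element bound by NRF2 (TGACNNNGC), the HNF1 core (GTTAAT), the HNF4 site and the CDX site (TTTATG). RefSeq entries were matched for 9 of the 10 genes, with 14 starts, and Slc7a5 was the gene without one. For Slc3a2 the window searched ended at 8714147, inside the gene, with 0 bases ahead of an annotated exon. The bases before its outer end at 8723369 were not searched. The amino acid response element was found for Slc7a11, at 66 and in reverse at 47 bases before the start, and for a pair of the 5 starts of Slc7a7, compared with 3.45% of all 32851 starts. The windows of this pair, 54417703 to 54417952 and 54417945 to 54418194, lay outside the counted Slc7a7 gene, which ended at 54409472. The window next to the counted gene, 54409473 to 54409722, had no such element. The HNF4 site was found for Slc3a1, 39 bases before the start, against 0.384% of all starts. The HNF1 core was found for another start of Slc7a7 (6.43% of all starts), while the antioxidant response element (10.2% of all starts) and the CDX site (10.8%) were found for 0 of the 9 genes. None of the matches overlapped another. These are matches of letters, and no binding was measured.

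The other apical carriers differed more between mice. Slc6a19, the sodium-coupled carrier of neutral amino acids (ENSMUSG00000021565, chromosome 13 from 73679745 to 73704865), had 958, 1523, 1628 and 1619 CPM in the normal cys and 762, 1136 and 971 CPM in the low cys libraries. Of the normal cys libraries 3 lay above all low cys libraries, while X17SI4 lay below X26SI4 and X10SI4. The means were 1432 ± 319 (SD, n = 4) and 956 ± 187 (SD, n = 3) CPM, which gave -0.58 as the log2 fold change (standard error 0.23, 95% interval -1.10 to -0.06, unadjusted p = 0.0315, adjusted p = 0.794 in edgeR). The exact permutation test, two-sided, gave p = 0.114. Without the low cys library X23SI4 the log2 fold change was -0.43, and 0 of the 10 genes then had an unadjusted p under 0.05.

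Slc15a1, the proton-coupled carrier of small peptides (ENSMUSG00000025557, chromosome 14 from 121459621 to 121505254), had 495, 902, 1033 and 729 CPM in the normal cys and 334, 503 and 594 CPM in the low cys libraries. As for Slc6a19, X17SI4 was the normal cys library that lay within the low cys range. The means were 789.7 ± 232 (SD, n = 4) and 477 ± 132 (SD, n = 3) CPM, a log2 fold change of -0.73 (standard error 0.28, 95% interval -1.36 to -0.09, unadjusted p = 0.0287, adjusted p = 0.794 in edgeR). The exact permutation test, two-sided, gave p = 0.143. The unadjusted call was lost without X32SI4, without SI9 and without X23SI4, the last with a log2 fold change of -0.51, as it was for Slc6a19. It was lost for Slc15a1 without X26SI4 and for Slc6a19 without X1SI4 and without X10SI4.

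Slc1a1, which carries glutamate, aspartate and also cysteine (ENSMUSG00000024935, chromosome 19 from 28835049 to 28913960), was the only member above 10 CPM whose estimate was higher in the low cys group. It had 207, 208, 167 and 175 CPM in the normal cys and 229, 219.5 and 178 CPM in the low cys libraries. X10SI4 lay among the normal cys libraries, the other low cys libraries above them. Its log2 fold change was 0.14 (standard error 0.15, 95% interval -0.19 to 0.47, adjusted p = 0.822 in edgeR), and it ran from 0.081 without X23SI4 to 0.24 without X10SI4. Of its 50-base stretches, 31.0% occur in antisense in another gene, where its exons overlap those of 4430402I18Rik.

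Cltrn, which accompanies Slc6a19 in the kidney, had between 2 and 12 counts in each library and was not tested.

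The basolateral carriers differed by small amounts. Slc3a2, the common heavy chain (ENSMUSG00000010095, chromosome 19 from 8706882 to 8723369), had 241, 275, 306 and 202 CPM in the normal cys and 189, 214 and 227 CPM in the low cys libraries, with X1SI4 inside the low cys range. Its log2 fold change was -0.29 (standard error 0.16, 95% interval -0.66 to 0.08, adjusted p = 0.794 in edgeR), and without X1SI4 its unadjusted p was under 0.05. Of its 50-base stretches, 3.42% are shared with transcripts of other genes on the same strand.

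Slc7a7, the exporter of cationic amino acids (ENSMUSG00000000958, chromosome 14 from 54369444 to 54409472), varied least between mice on the same diet, by 5.96% (coefficient of variation, n = 4) in the normal cys and 3.03% (n = 3) in the low cys group. It had 364, 343, 354 and 317 CPM in the normal cys and 284, 291 and 302 CPM in the low cys libraries, so all low cys libraries were below all normal cys libraries. The means were 344 ± 20.5 (SD, n = 4) and 292 ± 8.87 (SD, n = 3) CPM (exact permutation test, two-sided, p = 0.0571). In edgeR the log2 fold change was -0.24 (standard error 0.12, 95% interval -0.51 to 0.03, adjusted p = 0.794 in edgeR). Exons of Slc7a7 overlap those of Oxa1l on the opposite strand, which touches 5.25% of its 50-base stretches.

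Slc7a8, the exchanger of neutral amino acids (ENSMUSG00000022180, chromosome 14 from 54722216 to 54781886), varied most among the abundant members, by 45.1% in the normal cys and 36.2% in the low cys group. It had 85.3, 173, 171 and 66.6 CPM in the normal cys and 67.3, 106 and 144 CPM in the low cys libraries. X32SI4 and SI9 lay above all low cys libraries and X1SI4 below them, while X17SI4 lay inside their range. Its log2 fold change was -0.23 (standard error 0.39, 95% interval -1.11 to 0.65, adjusted p = 0.878 in edgeR), and without X23SI4 it was 0.025.

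Relative to Slc3a2 and per length, Slc7a7 was the most abundant of its light chains in all 7 libraries, at 1.60 to 2.16 times the level of Slc3a2. Slc7a8 was at 0.242 to 0.465 times and Slc7a5 at 0.00587 to 0.0455 times this level, and Slc7a11 at 0.00219 times at most. None of the 4 ratios to Slc3a2 differed between the diets beyond the spread of the libraries (two-sided exact permutation tests, each with p = 0.8 after adjustment over the 5 pairs of chains). The log2 difference of low cys minus normal cys was 0.039 for Slc7a7, 0.10 for Slc7a8, 0.88 for Slc7a5 and 0.35 for Slc7a11. The SD among the low cys libraries was 1.25 for Slc7a5 and 1.34 for Slc7a11.

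**Figure D2:**
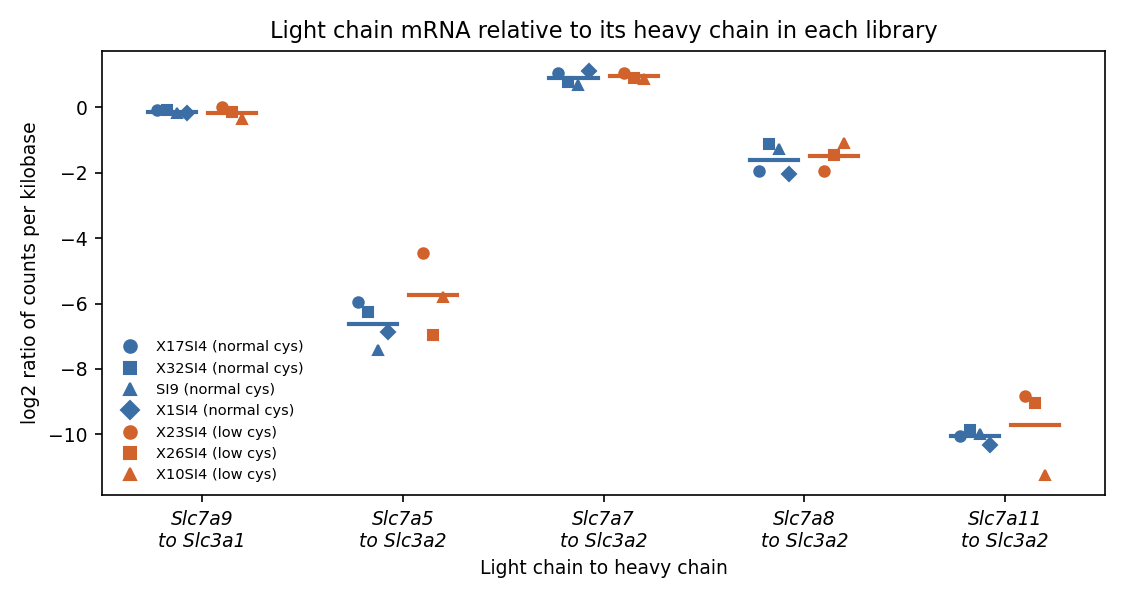
The log2 ratio of the counts per kilobase of exon of a light chain to those of its heavy chain is plotted for 5 pairs, with 1 point for each library and a bar at the mean of each diet. Slc7a9 sits near 0 against Slc3a1 in all 7 libraries, and the points of the diets overlap in each pair.

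Slc7a5 and Slc7a11 were expressed at low levels. Slc7a5, an exchanger of large neutral amino acids that is typical of dividing cells (ENSMUSG00000040010, chromosome 8 from 121881146 to 121907686), had 88, 93, 40 and 42 counts in the normal cys and 249, 32 and 74 counts in the low cys libraries. This corresponds to 4.60, 4.22, 2.10 and 2.01 CPM and to 10.2, 2.0 and 4.77 CPM. X23SI4 had the highest value of all libraries and X26SI4 the lowest, so the low cys libraries spanned the normal cys ones. The log2 fold change was 0.82 (standard error 0.52, 95% interval -0.37 to 2.0, adjusted p = 0.794 in edgeR), and it was 0.079 without X23SI4 and 1.24 without X26SI4, where it had an unadjusted p under 0.05.

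Slc7a11, the exchanger that imports cystine in many cultured cells (ENSMUSG00000027737, chromosome 3 from 50364936 to 50443613), had 16, 24, 21 and 12 counts in the normal cys and 38, 24 and 5 counts in the low cys libraries. The CPM values were 0.836, 1.09, 1.10 and 0.573 in the normal cys and 1.55, 1.50 and 0.322 in the low cys libraries. X23SI4 and X26SI4 were above and X10SI4 below all normal cys libraries. The log2 fold change was 0.34 (standard error 0.52, 95% interval -0.83 to 1.51, adjusted p = 0.868 in edgeR), and it ran from 0.026 without X23SI4 to 0.75 without X10SI4. The low counts and the spread between the libraries both enter this interval and were not separated.

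**Figure D3:**
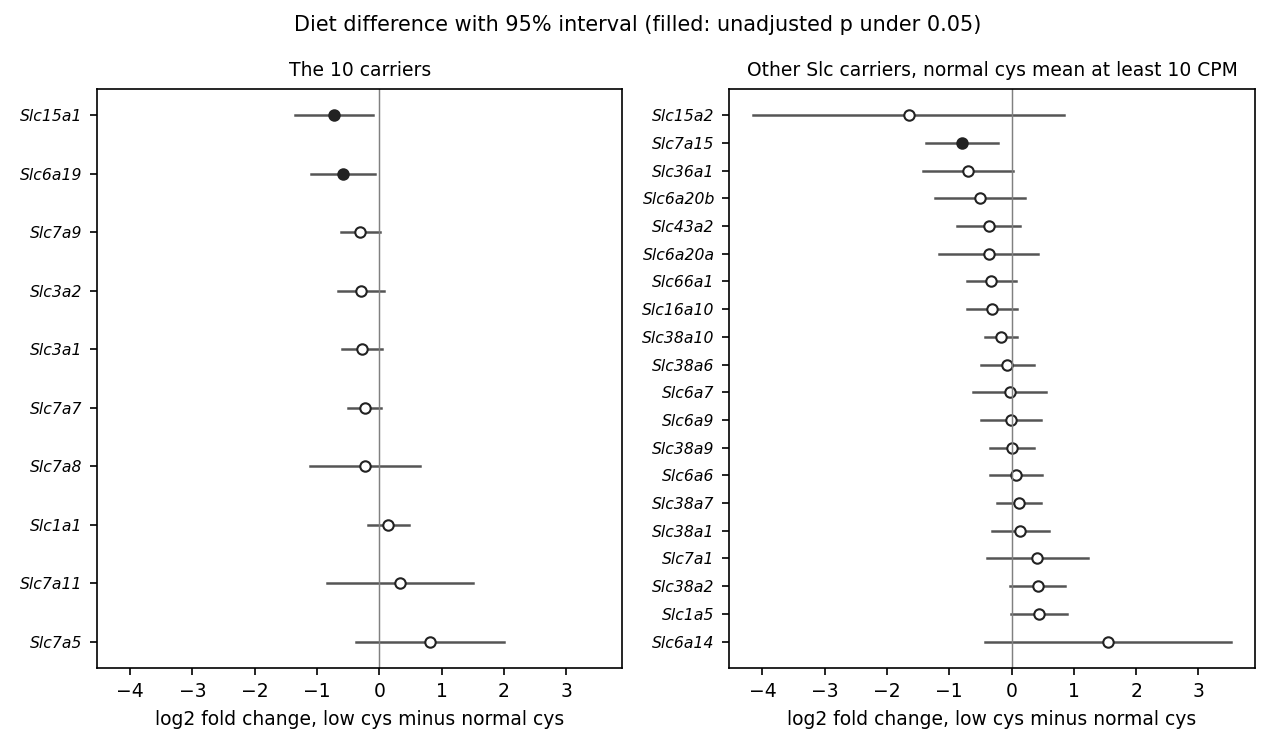
The log2 fold change of low cys against normal cys is plotted with its 95% interval for the 10 genes on the left and for other carriers of the Slc families with a normal cys mean of at least 10 CPM on the right. Filled points have an unadjusted edgeR p under 0.05, which were Slc15a1 and Slc6a19 on the left and Slc7a15 on the right.

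Per kilobase of exon, the levels of the 10 genes on the normal cystine diet spanned from 286 CPM for Slc6a19 to 0.0801 CPM for Slc7a11. The order was Slc6a19, Slc15a1 (253), Slc3a1 (221), Slc7a9 (202), Slc7a7 (161), Slc3a2 (86.5), Slc7a8 (30.71), Slc1a1 (30.66), Slc7a5 (0.920) and Slc7a11. The ranges of the 4 normal cys libraries overlapped between neighbors from Slc6a19 to Slc7a9 and between Slc7a8 and Slc1a1. Within each of these libraries Slc7a9 was nonetheless below Slc3a1, at 0.884 to 0.955 times its level. The other overlapping neighbors were not compared within libraries. On the low cystine diet Slc15a1 moved from the second to the fourth place, at 153 CPM per kilobase, and Slc1a1 changed places with Slc7a8, within the spread of the libraries. Exon length merges all annotated transcripts of a gene, so genes with long untranslated regions, such as Slc7a11 with 11245 exonic bases, appear lower on this scale.

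**Figure D4:**
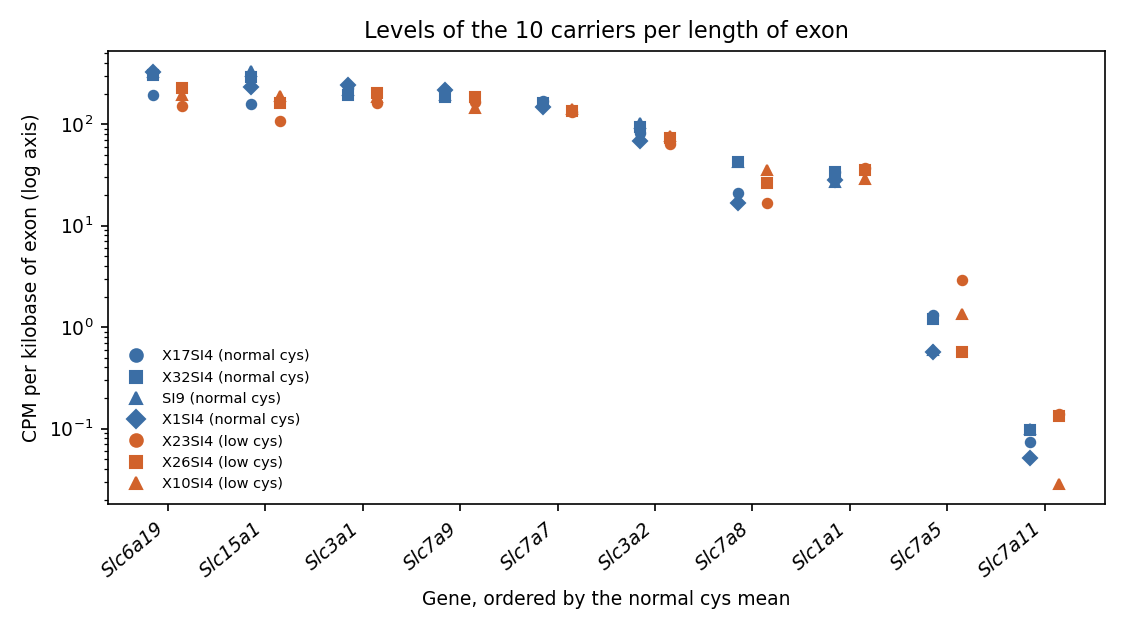
CPM per kilobase of exon is plotted on a log axis for the 10 genes in the order of their normal cys mean, with 1 point for each library. Slc6a19, Slc15a1, Slc3a1, Slc7a9 and Slc7a7 lie above 100, Slc3a2 has a mean of 86.5, Slc7a8 and Slc1a1 of 30.7 each and Slc7a11 of 0.0801.

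The genes whose log2 CPM followed that of Slc3a1 most closely over the 7 libraries, among those with a mean of at least 10 CPM, were Ptprr, Tdrd7 and Cast, with Pearson correlations of 0.99 each. Slc7a9 stood at rank 461 of 8626 genes in this order. For Slc7a11 the closest genes were 1700012B15Rik, Uimc1 and Pts, with Pearson correlations of 0.93, 0.93 and 0.91. Their Spearman correlations were 0.68, 0.75 and 0.96, and Slc7a11 had only 5 to 38 counts per library. Among the members, Slc6a19 and Slc15a1 had a correlation of 0.92 (0.85 within diets) and Slc3a2 and Slc7a8 of 0.84 (0.94 within diets). All are descriptions over 7 libraries.

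Enterocytes are the cells in which most of these carriers are known to be expressed, and their markers had lower values on the low cystine diet as well. All 8 enterocyte markers had a lower estimate, with a median log2 fold change of -0.51. Of them, 2, Apoa1 and Krt20, had an unadjusted p under 0.05 in edgeR, beside 5.49% of all genes tested. The sum of the 8 markers was 39818 to 60467 CPM in the normal cys and 21447 to 39663 CPM in the low cys libraries, without overlap. Singly, only Vil1 and Krt20 separated the diets. The mean log2 CPM of the 8 markers overlapped, with low cys library X10SI4 (11.86) above normal cys libraries X17SI4 (11.82) and X32SI4 (11.79). All 5 stem and cycling cell markers had a higher estimate (median log2 fold change 0.71), with sums of 63.5 to 243 CPM in the normal cys and 141 to 279 CPM in the low cys libraries. Higher estimates were also found for 4 of 4 Paneth cell markers (median log2 fold change 0.75) and 4 of 4 tested stroma markers (1.29). The same held for 5 of 5 smooth muscle (1.67), 5 of 5 macrophage (0.51) and 3 of 3 endothelium markers (0.91). It also held for 4 of 4 B and plasma cell markers (0.24). Of these, Dcn and Col3a1 (stroma), Des and Actg2 (smooth muscle) and Jchain (B and plasma cell) had an unadjusted p under 0.05 in edgeR. Dcn also had an adjusted p of 0.0292 in DESeq2. The endothelium sums were low, at 1.05 to 3.42 CPM in the normal cys and 3.29 to 4.19 CPM in the low cys libraries. X26SI4 had the highest value of each smooth muscle marker, and the smooth muscle sums overlapped between the diets. Lower estimates were found for 4 of 4 T cell (-0.37), 3 of 3 tuft cell (-0.26) and 4 of 5 goblet cell markers (-0.31). They were also found for 4 of 5 distal ileum (-0.15) and 3 of 4 tested proximal small intestine markers (-0.60). Of 4 enteroendocrine cell markers, 3 had a higher estimate (0.11), and 1 of these, Gcg, had an unadjusted p under 0.05 in edgeR. The sums of the B and plasma cell markers did not overlap, nor did those of the stroma markers. The former were 36.2 to 106 CPM in the normal cys and 144 to 209.0 CPM in the low cys libraries. Of the 4 B and plasma cell markers, only Jchain separated the diets, with means of 71.2 CPM in normal cys and 169 CPM in low cys. Mzb1, Cd79a and Ms4a1 overlapped, with log2 fold changes of 0.25, 0.23 and 0.23. In tissue scrapings, fewer cells of a type and less RNA per cell cannot be told apart.

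Expressed relative to the mean log2 CPM of the 8 enterocyte markers in the same library, a measure chosen after the data were seen, 0 of the 10 genes had diets without overlap. The share of all genes was not computed here. Within a library the same score is taken off every gene, so all 10 move by the same amount. The spread of the score, from 10.9 in X23SI4 to 12.4 in SI9, also enters each value. Overlap or a change of sign on this scale is therefore not a separate result for each gene. On this scale the difference of low cys minus normal cys was 0.32 for Slc3a1, 0.29 for Slc7a9, 0.025 for Slc6a19 and -0.12 for Slc15a1 (exact permutation tests, two-sided, p = 0.314, 0.486, 0.943 and 0.714). The lowest enterocyte score of all libraries, 10.9, and the highest score of the stem and cycling cell markers, 5.04, were those of X23SI4, which also had the lowest values of Slc3a1, Slc6a19, Slc15a1, Slc3a2 and Slc7a7 and the highest of Slc7a5, Slc7a11 and Slc1a1. The part of the cell makeup in the differences between the diets was not tested.

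**Figure D5:**
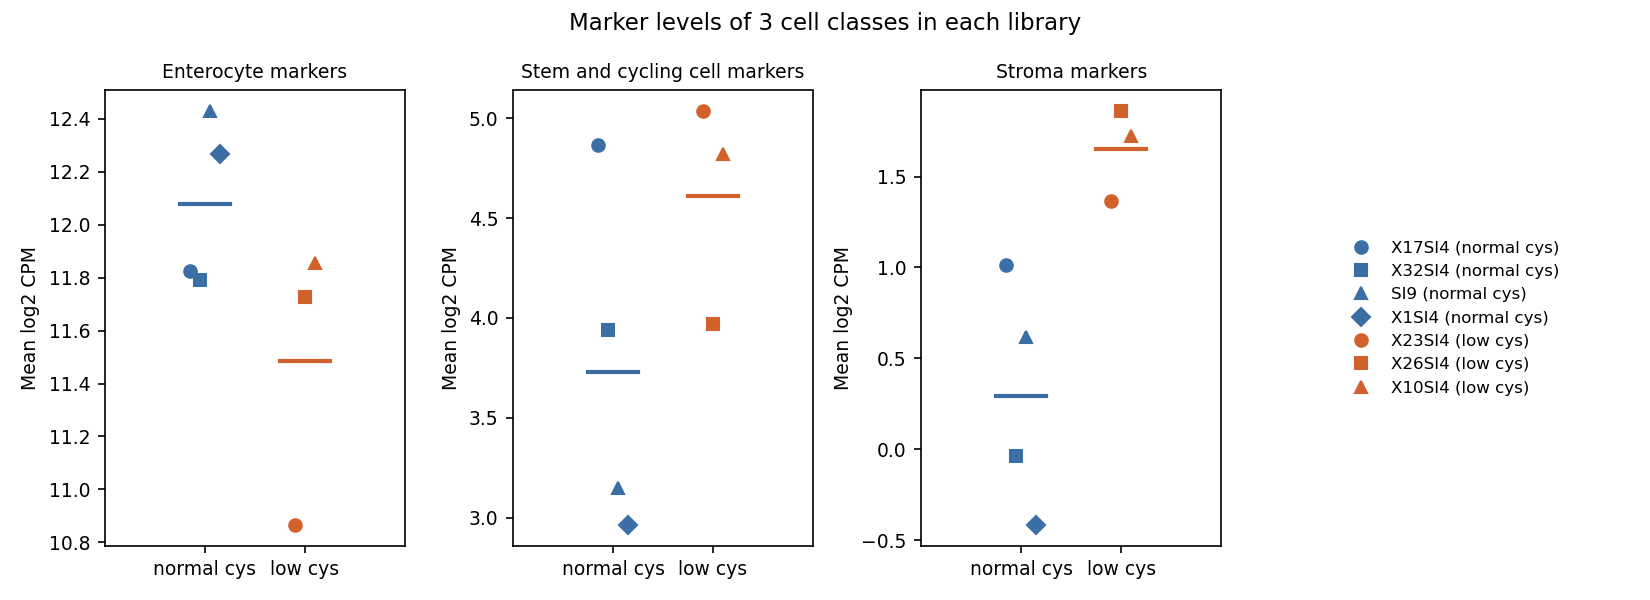
The mean log2 CPM of the enterocyte, the stem and cycling cell and the stroma markers is plotted for each library, with a bar at the mean of each diet. Low cys library X23SI4 has the lowest enterocyte score (10.9) and the highest score of stem and cycling cell markers (5.04), and the 3 low cys libraries have the highest stroma scores.

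A further 53 genes for amino acid and peptide carriers and their accessory proteins were examined, of which 36 passed the filter on low counts. None had an adjusted p under 0.05 in edgeR, DESeq2 or limma-voom, and 1, Slc7a15, had an unadjusted edgeR p under 0.05, beside 5.49% of all genes tested, with 3 by DESeq2 (6.32% of all) and 2 by limma-voom (6.25%). Of the 36, 21 had a lower and 15 a higher estimate, with a median log2 fold change of -0.05. Slc7a15, a light chain of the same family as Slc7a9, had 137, 252, 304 and 270.1 CPM in the normal cys and 119, 141 and 156 CPM in the low cys libraries, with X17SI4 again among the low cys libraries (log2 fold change -0.80, standard error 0.25, unadjusted p = 0.0119, adjusted p = 0.794 in edgeR). Without X23SI4, 0 of these genes had an unadjusted p under 0.05.

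Slc36a1 and Slc66a1 were also among the 4 with the smallest p of those with a lower estimate. Slc36a1, a proton-coupled carrier of small neutral amino acids, had a log2 fold change of -0.70 (unadjusted p = 0.0570 in edgeR). Slc66a1, a lysosomal exporter of cationic amino acids (Pqlc2 in the count table), had -0.33 (unadjusted p = 0.0921 in edgeR). In Slc66a1 every low cys library, at 11.5, 12.6 and 12.1 CPM, was below every normal cys library, the lowest of which was X17SI4 with 12.8 CPM. Of the 36 genes, the diets were without overlap in 2 lower ones, Slc66a1 and Slc38a10, and in 1 higher one, Slc43a1, beside 3.51% lower and 3.32% higher among all genes tested, and Slc38a10 was named after its values were seen. Among those with a higher estimate they were Slc1a5, a glutamine carrier, with 0.43, Slc38a2, a neutral amino acid carrier known to be raised by amino acid shortage, with 0.42, Slc43a1, a carrier of large neutral amino acids with 6 to 23 counts per library, with 0.82 and Slc6a14, a broad carrier of neutral and cationic amino acids, with 1.55. The values of Slc38a2 were 70.9, 61.8, 61.5 and 82.8 CPM in the normal cys and 121, 86.5 and 69.5 CPM in the low cys libraries, with X10SI4 inside the normal cys range. Slc6a14 ran from 1.05 CPM in SI9 to 38.04 CPM in X17SI4 on the normal and from 17.3 CPM in X10SI4 to 85.1 CPM in X23SI4 on the low cystine diet. Ctns, the exporter of cystine from lysosomes, which was added to those named after its values were seen, had 22.6 ± 2.49 (SD, n = 4) and 19.1 ± 3.94 (SD, n = 3) CPM (log2 fold change -0.25, standard error 0.17, adjusted p = 0.794 in edgeR).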

How the data were processed

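RNA was measured in 4 normal cys and 3 low cys libraries, grouped by their diet labels. The authors deposited raw counts of reads on the exons of each gene, together with exon lengths. Per the paper's methods and the labels, stranded poly(A) libraries were sequenced in pairs of 50-base reads, trimmed with Trim Galore, cleared of ribosomal reads with SortMeRNA, aligned to GRCm38 with STAR and counted with featureCounts and an Ensembl annotation. The study tested these raw counts with DESeq2, which is an alternative here, and used edgeR 3.28 for normalization. The strand setting and the treatment of multiple matches were not given in the sources used here. Sharing of 50-base stretches was therefore measured in the GENCODE M21 transcripts (GRCm38).

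Genes were kept by filterByExpr of edgeR 4.0.16 (minimum count 10, minimum total 15), scaled by TMM factors and compared by the quasi-likelihood test (robust setting) in R 4.3.3, with Benjamini-Hochberg adjustment over 14869 genes. Intervals are 95% intervals of the fit. Log2 CPM used a prior count of 2 and the ratios of chains a pseudocount of 0.5. DESeq2 1.42.0, limma 3.58.1, other scalings and filters and leaving out each library were the alternatives. The fit was tested on simulated data. Single values were compared by exact permutation tests over 35 splits. No batch is given in the labels. That the libraries came from separate mice is taken from the study's design. The members and lists were chosen with earlier results of these data known. Of the other carriers, the 4 with the smallest p in each direction were named, with Cltrn, and for Slc3a1 and Slc7a11 the 3 genes of highest correlation. A gene that this rule names is not reported here. Of 8 enterocyte, 5 distal ileum, 5 smooth muscle, 5 stem and cycling cell and 5 stroma markers, the stroma list had 4 tested genes, all with a higher estimate, and sums of 3.77 to 8.15 CPM in the normal cys and 10.9 to 16.7 CPM in the low cys libraries. No table of protein sequences was used here.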

Additional observations from a re-analysis of the deposited data

Results flagged for a closer look

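The log2 CPM of Slc6a19 in normal cys library X17SI4 lay far from the other normal cys libraries. It had 958 CPM, against 1523 to 1628 CPM in the other 3, and its distance to the nearest of them was 0.874 of the whole range, above Dixon's 95% critical value for 4 values. Of 15 groups of 4 values examined, covering the 10 genes and the 5 ratios of chains, this was 1, where chance alone gives 0.75. The same library had an enterocyte score of 11.8 and a stem and cycling cell score of 4.86, the latter above the other normal cys libraries, and the part of these in the value of Slc6a19 was not tested. Without X17SI4 the log2 fold change of Slc6a19 was -0.73, with an adjusted p of 0.373 in edgeR.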

How the results depend on the processing

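No gene of the 10 had an adjusted p under 0.05 in any of the 14 settings, although Slc7a11 was not tested where every library needed 10 counts, and the smallest was 0.373, for Slc6a19 without X17SI4. The members with an unadjusted p under 0.05, 2 in the reported fit, were 4 with DESeq2 (6.32% of all genes tested), 1 with total counts alone (6.97%) and 0 to 2 when each library was left out, where the share of all genes ran from 1.71% without X23SI4 to 11.9% without X17SI4, and the cause of these shifts was not tested. The other carriers at this level, 1 in the reported fit, were 3 with DESeq2, 2 with limma-voom, 4 without a filter, 3 with total counts alone and 0 to 6 with a library left out. Members without overlap of the diets were 2, 0 with total counts alone, 0 relative to the enterocyte markers, and 2 to 4 with a library left out, where a count can only stay or grow under unchanged scaling. The share of all genes without overlap was 6.83% in the reported fit. It was not computed for the other settings, so their counts cannot be read as results about the members. The median log2 fold change of the members was -0.25, -0.12 with total counts alone and 0.34 relative to the enterocyte markers. On the latter scale, 6 members reversed, to 0.32 for Slc3a1, 0.29 for Slc7a9, 0.025 for Slc6a19, 0.32 for Slc3a2, 0.36 for Slc7a7 and 0.42 for Slc7a8. That scale takes the same score off every member of a library, so these reversals are not separate results. Slc7a8 also reversed without X23SI4, to 0.025, from a range of -0.52 to 0.025. With each library left out, the log2 ratio difference ran from -0.12 to 0.060 for Slc7a9 to Slc3a1, from -0.038 to 0.11 for Slc7a7, from -0.097 to 0.32 for Slc7a8 and from -0.085 to 1.12 for Slc7a11 to Slc3a2, and from 0.24 without X23SI4 to 1.49 without X26SI4 for Slc7a5 to Slc3a2. Total counts alone and the enterocyte scale were chosen after the data were seen. Slc7a11 had 5 to 38 counts per library, and counting error and the spread between mice were not separated.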
